A study of Mus musculus with 8 samples.

Results

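The laminin chains described here are 9 of the 25509 genes in the count table: the alpha chain genes Lama2, Lama3, Lama4 and Lama5, the beta chain genes Lamb1, Lamb2 and Lamb3, and the gamma chain genes Lamc1 and Lamc3. They were chosen by gene symbol, and all 9 passed the filter on low counts. Other laminin genes of the table were not analysed here. The libraries hold RNA of CD249+ and of CD249- lung fibroblasts, 4 libraries of each, from wild-type mice of the strain C57Bl6/J. The mice are numbered 2, 7, 8 and 10, and each lung gave 1 library of both kinds. Both fractions were sorted from digested lung as cells negative for CD45, CD326 and CD31, the surface proteins of leukocytes, epithelium and endothelium, and CD249 on the surface divided them, as many cells of one kind as of the other per lung. CD249 is glutamyl aminopeptidase, encoded by Enpep. The age and sex of the mice are not given in the sources used here, and no mouse received a treatment that the labels name.

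Laminins are secreted proteins of the basement membrane, the thin sheet of matrix beneath epithelium and around vessels, muscle and fat cells. Each laminin is assembled inside the cell from 1 alpha, 1 beta and 1 gamma chain. Outside the cell the short arms of the trimers join into a network, and the end of the alpha chain binds integrins and dystroglycan on cell surfaces. In lung, laminins underlie the airway and alveolar epithelium and surround capillaries and smooth muscle, and mesenchymal cells supply part of the chains.

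In bulk samples such as these, fewer cells of a type and less RNA per cell cannot be told apart. Library totals ran from 23011383 to 31906414 counts. Enpep averaged 241 ± 64.8 CPM in the CD249+ and 8.98 ± 5.62 CPM in the CD249- fraction (SD, n = 4 each), which checks the sort. CPM are counts scaled to a common library total, after each total was adjusted by a TMM scaling factor. Of 10 markers of alveolar fibroblasts, 10 were higher in CD249+ cells, with summed levels of 7046 to 13313 CPM in the CD249+ libraries and 866 to 1299 CPM in the CD249- libraries. Of 14 endothelial markers, 14 were lower in CD249+ cells, with sums of 4956 to 9253 CPM in CD249+ and 15441 to 20510 CPM in CD249- libraries, although the gate removed CD31-positive cells. By the test given below, 16.9% of all genes tested were called higher and 13.9% lower in CD249+ cells. None of these markers was at 0 over all libraries. Pecam1, the gene of CD31, averaged 611 ± 239 CPM in the CD249+ and 1667 ± 248 CPM in the CD249- fraction (SD, n = 4 each), and Cdh5, a cadherin of endothelial junctions, 227 ± 52.5 CPM in the CD249+ and 619.9 ± 78.0 CPM in the CD249- fraction. The part of these cells in the results below was not tested.

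Of the 9 chains, 6 rose in CD249+ cells, 1 fell and 2 did not pass the test (edgeR's quasi-likelihood test, two-sided, called at an adjusted p under 0.05 over 14524 genes). Over all genes tested, 30.8% were called, 16.9% higher and 13.9% lower in CD249+ cells. The chains that rose were Lamb1, Lamc3, Lama4, Lama2, Lamc1 and Lamb2, and the chain that fell was Lama5. Lama3 and Lamb3 did not pass. The median log2 fold change of the 9 chains, CD249+ over CD249-, was 1.67, beside -0.02 over all genes tested. The CPM of the 2 fractions did not overlap for 6 of the chains, and for 33.6% of all genes tested. With library totals as the only scaling, the calls over all genes were 2106 higher and 2689 lower, against 2455 higher and 2013 lower with TMM scaling, and the median of all genes was -0.12.

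Promoter sequences are shown for the chain with the largest increase, Lamb1, and for the chain that fell, Lama5. They are from RefSeq on GRCm38.p6 and run 5′ to 3′ on the gene's strand up to the start of the gene, with bases that GENCODE places inside the gene left out. Capitals mark matches on either strand to the GC box GGGCGG (reverse CCGCCC) or to the CCAAT box (CCAAT, reverse ATTGG).
Lamb1, chr12:31265043-31265233, plus strand: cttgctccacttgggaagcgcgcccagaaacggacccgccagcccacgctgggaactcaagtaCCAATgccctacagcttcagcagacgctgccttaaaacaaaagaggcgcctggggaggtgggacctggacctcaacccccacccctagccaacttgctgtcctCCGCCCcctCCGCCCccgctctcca
Lama5, chr2:180225860-180226109, minus strand: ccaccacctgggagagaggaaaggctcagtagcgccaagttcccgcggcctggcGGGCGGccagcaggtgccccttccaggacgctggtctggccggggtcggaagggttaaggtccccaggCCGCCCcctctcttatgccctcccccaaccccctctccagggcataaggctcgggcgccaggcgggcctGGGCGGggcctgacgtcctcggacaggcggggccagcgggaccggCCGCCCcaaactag
In the 250 bases before the RefSeq start, Lamb1 held 2 GC boxes and 1 CCAAT box, at 62.0% G and C with 14 CpG pairs. Lama5 held 4 GC boxes and no CCAAT box, at 72.4% G and C with 19 CpG pairs. The GC box was found in 32.7% and the CCAAT box in 33.9% of 32851 promoters of the same length, whose median was 52.4% G and C with 6 CpG pairs. Neither the TATA box TATAAA, held by 12.4% of these promoters, nor the AP-1 motif TGANTCA, held by 6.75%, was found in either window, and no 2 motifs overlapped. Both windows, of chains that moved in opposite directions, were richer in G and C than that median. RefSeq windows of 5 of the 9 chains were examined, and those of Lama2, Lamb2 and Lamb3 held none of the 4 motifs. By GENCODE the Lama2 and Lamb3 windows lay wholly inside the gene and the Lamb2 window partly. Their lack of motifs therefore does not describe the bases before the GENCODE start. No RefSeq promoter was found for Lama4, Lamc1 and Lamc3, and Lama3 was left out of the search.

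**Figure D1:**
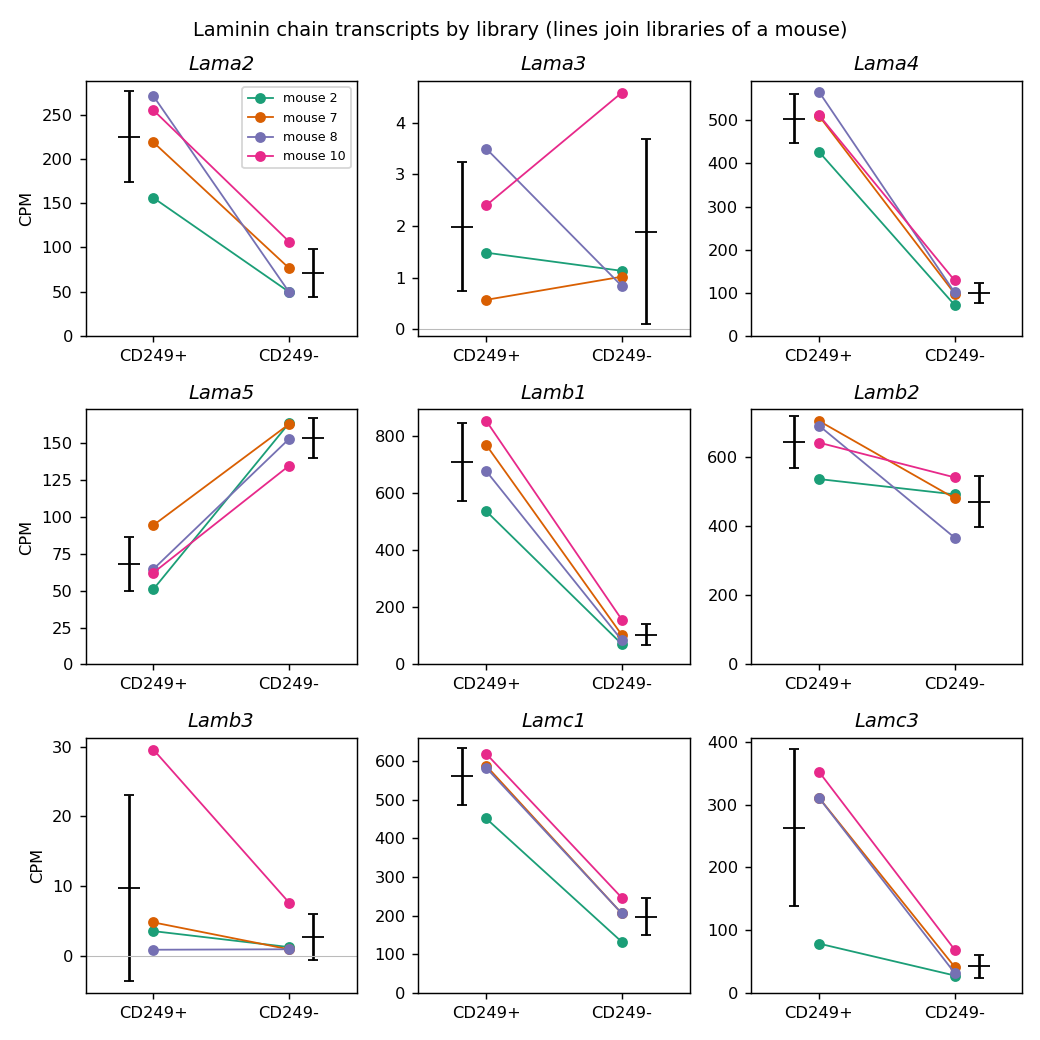
Level of each laminin chain gene in CPM (linear axis) in the CD249+ (left) and CD249- (right) library of each mouse, with lines joining the libraries of a mouse and the mean ± SD of 4 libraries in black. Every CD249+ point of Lama2, Lama4, Lamb1, Lamc1 and Lamc3 lies above every CD249- point, Lama5 shows the reverse, and Lamb3 in mouse 10 stands far above the other mice.

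The alpha chain sets the receptor binding of a laminin. Lama4 (ENSMUSG00000019846.11, chromosome 10, 38965515 to 39110188, plus strand, GRCm38) encodes an alpha chain without the long amino-terminal arm, known from vessels and mesenchyme. It had CD249+ levels of 427, 511, 566 and 512 CPM (mice 2, 7, 8 and 10) against CD249- levels of 71.9, 98.3, 101 and 129 CPM. The lowest CD249+ library was more than 3 times the highest CD249- library. The fitted log2 fold change was 2.33 (SE 0.18, adjusted p = 1.48e-05, edgeR), a 5.04-fold difference seen in 4 of 4 mice.

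Lama2 (ENSMUSG00000019899.15, chromosome 10, 26980036 to 27619758, minus strand), the alpha chain of muscle basement membrane whose loss causes a congenital muscular dystrophy, had CD249+ levels of 156, 219, 271 and 255 CPM (mice 2, 7, 8 and 10) against CD249- levels of 49.7, 76.6, 49.6 and 107 CPM. The fractions did not overlap, and mouse 10 had the highest CD249- value. Its log2 fold change was 1.67 (SE 0.27, adjusted p = 0.00121, edgeR).

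Lama5 (ENSMUSG00000015647.9, chromosome 2, 180176373 to 180225859, minus strand), a chain of most adult epithelial and endothelial basement membranes, was the only one of the 9 that fell. It had CD249+ levels of 51.0, 94.5, 64.6 and 62.2 CPM (mice 2, 7, 8 and 10) against CD249- levels of 164, 163, 153 and 135 CPM. The fractions did not overlap and the direction was the same in every mouse. On the log2 scale the fitted change was -1.17 (SE 0.17, adjusted p = 0.000769, edgeR), and the 14 endothelial markers, which fell with it, had a median of -1.46. Among CD249+ libraries, mouse 2 had the highest endothelial sum (9253 CPM) and the lowest Lama5. Mouse 7 had the lowest sum (4956 CPM, beside 4958 CPM in mouse 10) and the highest Lama5. Among CD249- libraries, mouse 2 was highest in both. Of 7 mesothelial markers tested, 5 fell as well, beside 13.9% lower over all genes, and the median of the 7 was -2.19. The part of endothelial or mesothelial RNA in the Lama5 values was not tested.

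Lama3 (ENSMUSG00000024421.16, chromosome 18, 12333819 to 12583013, plus strand), the alpha chain of the laminin that anchors stratified epithelium, was near the floor. It had CD249+ levels of 1.48, 0.566, 3.50 and 2.40 CPM (mice 2, 7, 8 and 10) against CD249- levels of 1.13, 1.02, 0.834 and 4.59 CPM, from 16 to 153 counts a library. The fractions overlapped, and it was higher in CD249+ cells of 2 of 4 mice. The log2 fold change was 0.07 (SE 0.73, adjusted p = 0.958, edgeR) and turned to -0.03 with library totals as the only scaling and, over the fits that left out a library or a mouse, ran from -0.60 without mouse 8 to 1.00 without the CD249- library of mouse 10.

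Among beta chains, Lamb1 (ENSMUSG00000002900.15, chromosome 12, 31265234 to 31329644, plus strand), which is found in early and mesenchymal laminins, showed the largest increase of the family. It had CD249+ levels of 536, 768, 676 and 852 CPM (mice 2, 7, 8 and 10) against CD249- levels of 71.1, 103, 84.7 and 157 CPM. Mouse 10 was highest in both fractions and mouse 2 lowest in both. On the log2 scale the rise came to 2.77 (SE 0.25, adjusted p = 4.8e-05, edgeR), a 6.82-fold difference, and mouse 10 gave the smallest within-mouse value, 2.44.

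Lamb2 (ENSMUSG00000052911.9, chromosome 9, 108479736 to 108490530, plus strand), the beta chain of the neuromuscular junction and the kidney glomerulus, was abundant in both fractions. It had CD249+ levels of 537, 705, 691 and 642 CPM (mice 2, 7, 8 and 10) against CD249- levels of 492, 481, 367 and 541 CPM. The CD249+ library of mouse 2 lay just below the CD249- library of mouse 10, so the fractions overlapped. The log2 fold change was 0.45 (SE 0.14, adjusted p = 0.0375, edgeR), in 4 of 4 mice. The edgeR call was lost with library totals as the only scaling (0.35, adjusted p = 0.0773), and in 9 of 12 edgeR fits that left out a library or a mouse. In edgeR it was lost without CD249+ mouse 7, 8 or 10 (adjusted p = 0.094, 0.0933 and 0.0749) and without CD249- mouse 2, 7 or 8 (adjusted p = 0.0612, 0.0728 and 0.0971). Leaving out mouse 7, 8 or 10 whole lost it as well (edgeR, adjusted p = 0.152, 0.186 and 0.0684).

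Lamb3 (ENSMUSG00000026639.18, chromosome 1, 193207699 to 193343878, plus strand), the beta partner of Lama3 in epithelium, had CD249+ levels of 3.52, 4.78, 0.849 and 29.6 CPM (mice 2, 7, 8 and 10) against CD249- levels of 1.23, 0.911, 0.918 and 7.62 CPM. Mouse 10 was highest in both fractions. The log2 fold change was 1.85 (SE 1.06, adjusted p = 0.221, edgeR), and with mouse as a block the chain was called at 1.52 (adjusted p = 0.0231). It gave 0.19 without the CD249+ library of mouse 10 and 3.24 without the CD249- library of mouse 10. The summed level of 12 epithelial markers in CD249+ cells was 502, 662, 1132 and 10320 CPM in mice 2, 7, 8 and 10, and in CD249- cells 251, 181, 218 and 853 CPM, so mouse 10 was highest there too. In the CD249+ library of mouse 10, most of that sum came from the surfactant protein genes Sftpc (7551 CPM) and Sftpa1 (1889 CPM). Of these 12 markers, 3 were called higher, beside 16.9% over all genes, 8 did not pass and Foxj1 was below the filter. The part of epithelial RNA in the Lamb3 values was not tested.

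Among gamma chains, Lamc1 (ENSMUSG00000026478.14, chromosome 1, 153218922 to 153332786, minus strand), a part of most laminin trimers, had CD249+ levels of 451, 587, 582 and 619 CPM (mice 2, 7, 8 and 10) against CD249- levels of 132, 205, 205 and 246 CPM. The fractions were well apart, and mouse 2 was the lowest in both. Its log2 fold change was 1.51 (SE 0.19, adjusted p = 0.000281, edgeR), with within-mouse values of 1.33 to 1.77.

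Lamc3 (ENSMUSG00000026840.14, chromosome 2, 31887291 to 31946539, plus strand), a gamma chain of narrower distribution that is needed for normal folding of the human cortex, had CD249+ levels of 78.6, 311, 311 and 352 CPM (mice 2, 7, 8 and 10) against CD249- levels of 27.7, 41.6, 31.9 and 69.0 CPM. The CD249+ library of mouse 2 stood apart from the other 3 CD249+ libraries but still above every CD249- library. The log2 fold change was 2.63 (SE 0.45, adjusted p = 0.00185, edgeR), the second widest rise of the family, and 2.94 without the CD249+ library of mouse 2. The mice gave 1.502, 2.90, 3.29 and 2.35 in the order 2, 7, 8 and 10.

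**Figure D2:**
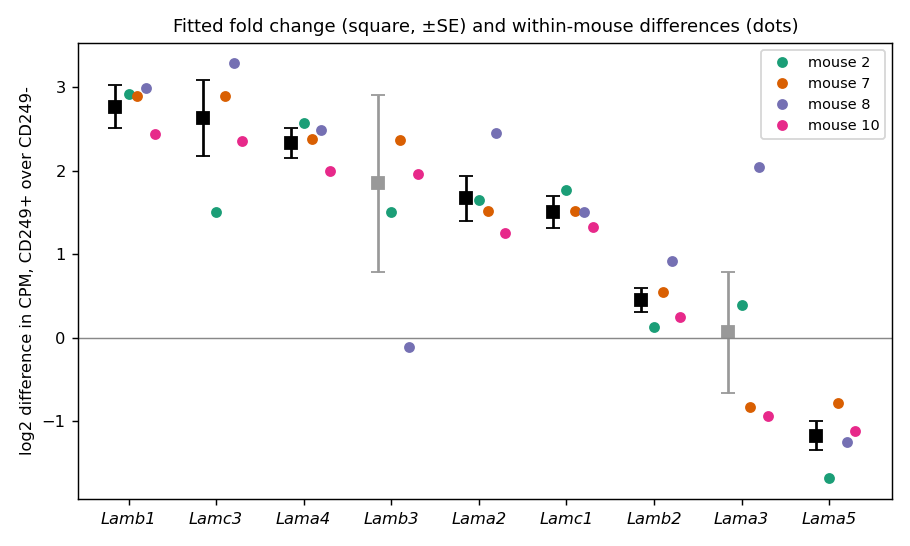
Log2 difference of CD249+ over CD249- for each chain, as fitted (square, ± SE, black where called and grey where not) and within each mouse (dots, log2 CPM with a prior count). Lamb1, Lama4 and Lamc1 gave similar values in all mice, while Lamb3 and Lama3 spread on both sides of 0.

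Levels of different genes were compared only per length, as CPM per kilobase of annotated exon. How evenly reads covered the transcripts in these libraries, amplified by oligo(dT) priming, was not examined. In CD249+ cells the order was Lamb2 (106 ± 12.6), Lamb1 (71.4 ± 13.6), Lamc1 (67.7 ± 8.98), Lamc3 (43.2 ± 20.5), Lama4 (41.8 ± 4.76), Lama2 (13.8 ± 3.13), Lama5 (5.98 ± 1.63), Lamb3 (1.47 ± 2.02) and Lama3 (0.185 ± 0.117) (SD, n = 4 each). In CD249- cells it was Lamb2 (77.3 ± 12.1), Lamc1 (23.8 ± 5.74), Lama5 (13.5 ± 1.18), Lamb1 (10.5 ± 3.78), Lama4 (8.28 ± 1.93), Lamc3 (6.99 ± 3.05), Lama2 (4.32 ± 1.66), Lamb3 (0.404 ± 0.499) and Lama3 (0.176 ± 0.168) (SD, n = 4 each). Neighbours that differed by less than the larger SD were Lamb1 and Lamc1, Lamc3 and Lama4, and Lamb3 and Lama3 in CD249+ cells. In CD249- cells they were each pair of neighbours from Lama5 down to Lama2, and Lamb3 and Lama3. By this length Lamb2 led in both fractions. Per kilobase of the longest transcript, Lamb1 (122 ± 23.4) stood above Lamb2 (114 ± 13.6) in CD249+ cells, and in CD249- cells Lamb1 (17.96 ± 6.48) and Lama4 (16.5 ± 3.85) stood above Lama5 (13.5 ± 1.18) (SD, n = 4 each), so these orders turn with the length used.

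The make-up of each class differed between the fractions. Lama4 was 67.9% ± 2.42 of the alpha level per kilobase in CD249+ cells and 31.3% ± 4.71 in CD249- cells, and Lama5 was 9.68% ± 2.21 in CD249+ cells and 52.0% ± 8.73 in CD249- cells (SD, n = 4 each). Lama2 was 22.1% ± 2.47 in CD249+ cells and 16.1% ± 4.58 in CD249- cells. The alpha chains were thus mostly Lama4 in every CD249+ library, with Lama5 in the lead in every CD249- library. Lamb1 was 39.8% ± 2.92 of the beta level in CD249+ cells and 11.7% ± 2.80 in CD249- cells, with nearly all of the rest Lamb2. Lamc3 was 36.7% ± 11.7 of the gamma level in CD249+ cells and 22.2% ± 4.18 in CD249- cells, and its share in the CD249+ library of mouse 2, at 19.1%, lay within the CD249- range. With the length of the longest transcript in place of all exons, Lama4 came to 74.0% in CD249+ and 43.7% in CD249- cells. Lama4 then led Lama5, at 36.8%, in CD249- cells, and Lamb1, at 51.1%, led Lamb2, at 48.2%, in CD249+ cells. Which chain leads in those cases depends on the length used, while Lama4 and Lamb1 took the larger share in CD249+ cells under every length tried.

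**Figure D3:**
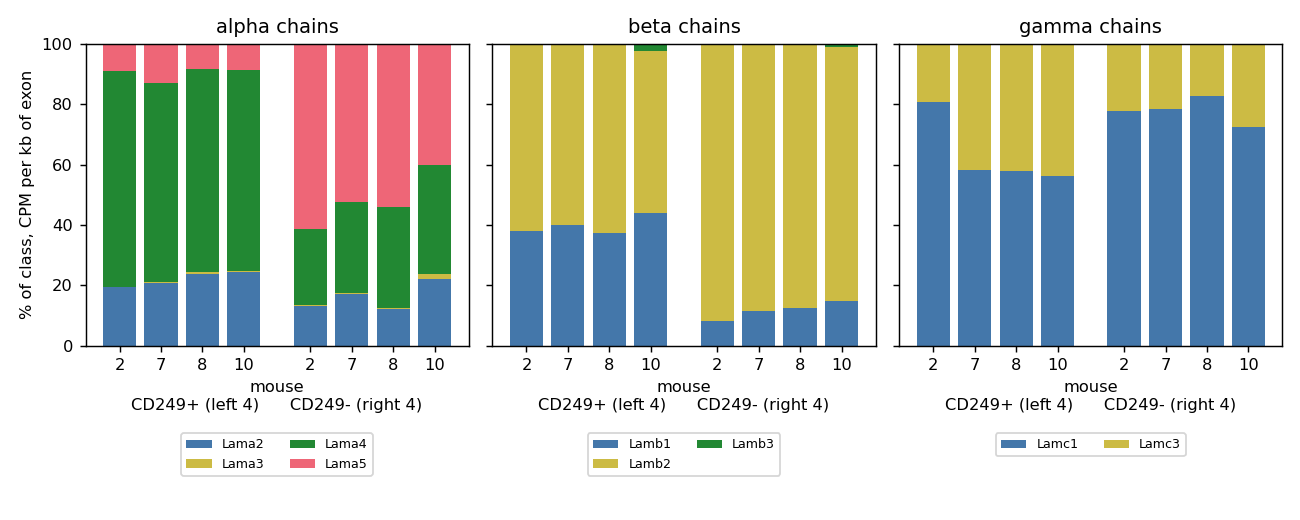
Share of each chain in the summed level (CPM per kilobase of exon, in %) of the alpha, beta and gamma chains in each library, with the 4 CD249+ libraries left of the 4 CD249- libraries. Lama4 takes 66.1% to 71.4% of the alpha level in CD249+ libraries and 25.4% to 36.2% in CD249- libraries.

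The ratio of a pair of chains within a library does not depend on scaling between libraries. For all 10 pairs within a class, the fractions were compared over the 8 libraries with an exact permutation test, two-sided, whose smallest possible p is 0.0286. It did not pair the fractions by mouse, and an exact test on the 4 within-mouse differences could reach p = 0.125 at best. The log2 ratio of Lama4 over Lama5 averaged 2.92 ± 0.32 in CD249+ cells and -0.65 ± 0.46 in CD249- cells (SD, n = 4 each), an 11.8-fold difference seen in 4 of 4 mice (exact permutation p = 0.0286, adjusted p = 0.0571 over 10 pairs). That of Lamb1 over Lamb2 averaged 0.12 ± 0.20 in CD249+ cells and -2.23 ± 0.42 in CD249- cells (SD, n = 4 each), a 5.11-fold difference in 4 of 4 mice with the same exact permutation p. Lama2 over Lama5 (7.59-fold higher in CD249+ cells), Lama2 over Lama3 (2.93-fold higher) and Lama3 over Lama4 (4.56-fold lower) also did not overlap between the fractions and gave that same smallest p. No pair passed at an adjusted p under 0.05, which this design could reach only if more pairs had given the smallest p. Lamc1 over Lamc3 averaged 1.29 ± 0.82 in CD249+ cells and 2.27 ± 0.35 in CD249- cells (SD, n = 4 each, exact permutation p = 0.114, adjusted p = 0.163), lower in CD249+ cells of 3 of 4 mice. Lama2 over Lama4 averaged -1.19 ± 0.20 in CD249+ cells and -0.55 ± 0.34 in CD249- cells (SD, n = 4 each, exact permutation p = 0.0571, adjusted p = 0.0952), lower in CD249+ cells of 4 of 4 mice. The 3 remaining pairs, each with Lama3 or Lamb3, gave exact permutation p values of 0.229 to 0.457 and overlapped.

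The profile of a chain over the 8 libraries was set beside those of 9964 genes that averaged 10 CPM or more, by the root mean square difference of centred log2 CPM. The gene nearest to Lama4 was Igsf10 at 0.11, followed by Mgp, which encodes matrix Gla protein, an inhibitor of calcification, at 0.13. Nearest to Lamb1 were Prdm6 (0.13) and Rasl11b (0.15), to Lamc1 Tpst1, a tyrosine sulfotransferase gene (0.07), and Dtx4 (0.11), and to Lama2 the lysophosphatidate receptor gene Lpar1 (0.12) and the dynamin gene Dnm1 (0.16). Lama5 was nearest to the homeobox gene Msx1 (0.16) and to Dnah8 (0.21), Lamb2 to Arl1 (0.07) and Rpn2 (0.08), and Lamc3 to the claudin gene Cldn1 (0.31) and C1qtnf3 (0.36). For Lama3 and Lamb3 the nearest genes, AW209491 and Mob1b for Lama3 and Dbp and Itih4 for Lamb3, were 0.66 or more away. Among the chains themselves the closest pair was Lama2 and Lamc1, at 0.27, followed by Lama4 and Lamb1, at 0.30. These distances rest on 8 libraries of 2 fractions and are a description only.

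Transcripts of the proteins that laminins meet in the basement membrane moved both ways. Of 22 partner genes tested, 9 rose, 3 fell and 10 did not pass, beside 30.8% called over all genes, with a median log2 fold change of 0.51, and Frem2 had 0 counts in every library. The rises were led by Npnt, which encodes the integrin ligand nephronectin (4.51, SE 0.35), by Frem1, a protein of the epithelial basement membrane (4.18, SE 0.58), and by the collagen genes Col4a5 (2.39, SE 0.25) and Col18a1 (1.96, SE 0.27). Npnt is also 1 of the 10 alveolar fibroblast markers. Hspg2, which encodes perlecan, averaged 122 ± 34.8 CPM in the CD249+ and 43.1 ± 9.99 CPM in the CD249- fraction, and Nid1, whose product nidogen joins laminin to collagen IV, 529 ± 77.7 CPM in the CD249+ and 346 ± 46.1 CPM in the CD249- fraction (SD, n = 4 each), both called. The common collagen IV genes Col4a1 and Col4a2 gave -0.09 and -0.10 (adjusted p = 0.583 and 0.574, edgeR). Agrn, which links laminin to dystroglycan, gave -0.37 (adjusted p = 0.0803, edgeR). The genes that fell were Tinagl1 (-1.24), the peroxidase gene Pxdn (-0.86), whose product crosslinks collagen IV, and Hmcn1 (-0.71).

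Receptor genes moved both ways. Of 13 tested, 3 rose, 5 fell and 5 did not pass, with a median of -0.27, beside 16.9% higher and 13.9% lower over all genes. The integrin alpha genes Itga6 (-1.45, SE 0.28), Itga3 (-1.26, SE 0.25), Itga2 (-1.21, SE 0.22) and Itga1 (-1.18, SE 0.19) and Bcam (-1.21, SE 0.17), which encodes a receptor for the Lama5 protein, fell. Itga6 averaged 155 ± 69.6 CPM in the CD249+ and 422 ± 88.9 CPM in the CD249- fraction (SD, n = 4 each). Their common partner Itgb1 gave -0.01 (adjusted p = 0.977, edgeR). Their fall went with that of the 14 endothelial markers, and the part of endothelial RNA in it was not tested. The syndecan genes Sdc4 (2.12, SE 0.18) and Sdc2 (1.88, SE 0.12) rose, as did Dag1 (0.85, SE 0.13), which encodes dystroglycan, at 400.4 ± 44.6 CPM in the CD249+ and 222 ± 32.2 CPM in the CD249- fraction (SD, n = 4 each).

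Dystroglycan binds laminin outside the cell and dystrophin within it. Of 12 genes of the dystrophin complex, 9 rose, 2 fell and 1 did not pass, with a median of 1.43, beside 16.9% higher and 13.9% lower over all genes. These rises went with those of the pericyte markers (9 of 10 higher, median 2.59) and smooth muscle markers (7 of 8 higher, median 1.72). They also went with those of the alveolar fibroblast markers (10 of 10 higher, median 3.74). The part of these cell types in the rises was not tested. The dystrobrevin gene Dtna rose by 2.97, the dystrophin gene Dmd by 2.23 and the delta-sarcoglycan gene Sgcd by 2.12. Utrn, which encodes the dystrophin relative utrophin (-0.56), and the syntrophin gene Sntb1 (-1.26) fell, as did the 14 endothelial markers, whose part in this was not tested. Of 12 genes for the glycan by which dystroglycan holds laminin, 8 rose and 4 did not pass, with a median of 0.51, beside the same 16.9% higher over all genes. Ispd (1.29, SE 0.30), Pomgnt2 (1.24, SE 0.22), Large (1.05, SE 0.30), the enzyme that builds the laminin-binding repeat, and Pomt1 (0.85, SE 0.13) led. Of the netrins, secreted proteins with laminin-like domains, 3 of 5 in the table were tested. Ntn4 rose by 0.48 (adjusted p = 0.0123, edgeR) and Ntn1 and Ntng2 did not pass, and 1 of 3 stands beside 16.9% higher over all genes.

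**Figure D4:**
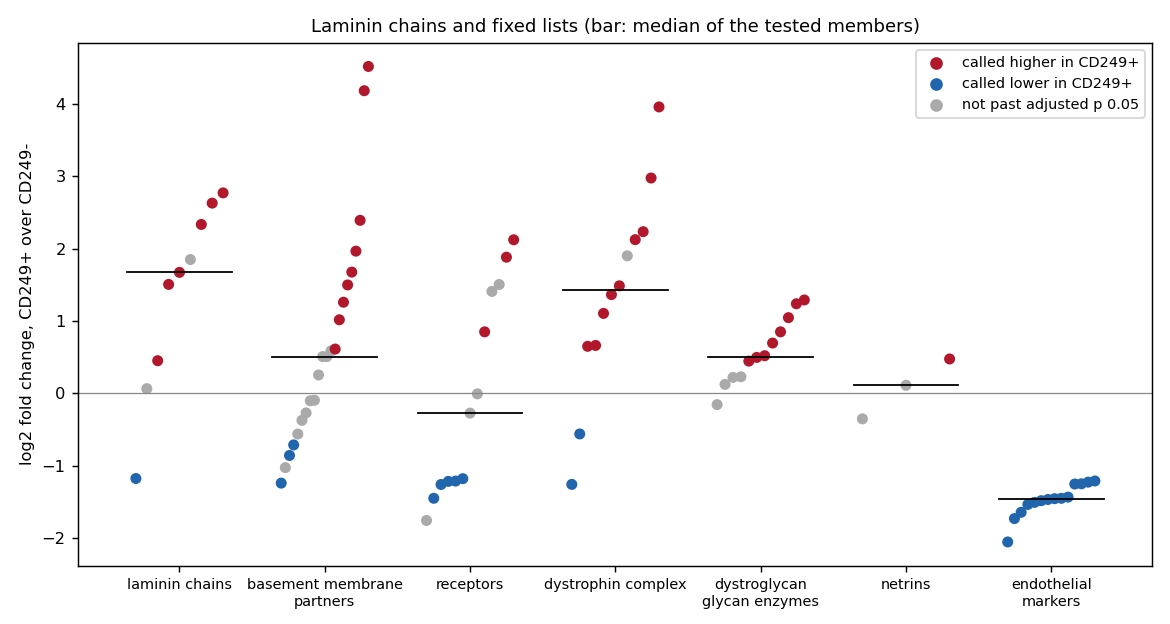
Log2 fold change of CD249+ over CD249- for each tested gene of the laminin chains, of the lists of partners and of the endothelial markers (red called higher, blue called lower, grey not past an adjusted p of 0.05, bar the median). The 14 endothelial markers lie between -2.05 and -1.21, Lama5 at -1.17 and the 5 receptor genes that fell between -1.45 and -1.18. The part of endothelial RNA in these falls was not tested.

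Markers of other cells that the gate could hold were measured beside these genes. Their calls stand beside 16.9% higher and 13.9% lower over all genes tested. Of 10 pericyte markers, 9 rose and 1 did not pass, with sums of 661 to 947 CPM in CD249+ libraries and 181 to 285 CPM in CD249- libraries. Of 8 smooth muscle markers, 7 rose and 1 did not pass, with sums of 916 to 1785 CPM in CD249+ and 181 to 758 CPM in CD249- libraries. The alveolar fibroblast markers rose as well (10 of 10 higher, median 3.74). All these rises went with those of Lama2, Lama4, Lamb1, Lamc1 and Lamc3, and the part of each cell type in them was not tested. Of 10 adventitial fibroblast markers, 3 rose, 2 fell and 5 did not pass, and their sums overlapped. Of 7 mesothelial markers tested, 1 rose, 5 fell and 1 did not pass. Of 10 leukocyte markers, 1 fell and 9 did not pass, and Ptprc, the gene of CD45, averaged 63.1 ± 22.8 CPM in the CD249+ and 123 ± 58.0 CPM in the CD249- fraction. Epcam, the gene of CD326, averaged 7.98 ± 4.97 CPM in the CD249+ and 7.46 ± 1.62 CPM in the CD249- fraction (SD, n = 4 each). The 4 Schwann cell markers tested, of 6, did not pass (edgeR, adjusted p = 0.0736 to 0.667), with sums of 11.9 to 23.5 CPM in CD249+ and 14.6 to 33.5 CPM in CD249- libraries.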

How the data were processed

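RNA of 8 sorted libraries was amplified by oligo(dT) priming from 10 ng and sequenced as single reads of 75 bases, per the labels' protocols, without UMIs or strand. The authors deposited 1 table of estimated counts, 12.0% of them not whole. The submitters' processing notes name STAR 2.6.1, RSEM 1.2.28 and the build GRCh38, although the genes are mouse. Which annotation was counted is not stated. Counts were rounded, filtered with filterByExpr (14524 genes kept), TMM-scaled and tested with edgeR 4.0.16 (quasi-likelihood, group only, Benjamini-Hochberg), a method checked on simulated data. DESeq2 1.42.0, limma 3.58.1, other scalings, no filter, a mouse block and leave-outs were alternatives. Same-mouse fractions, which come from 1 lung per the series' design, correlated at 0.0951 to 0.238 in deviations from group means, different mice at -0.181 to 0.0404. Ratios used a prior count of 0.5. Lengths and coordinates come from GENCODE on GRCm38, and Lama2, Lama3 and Lamc3 share exon bases with an antisense gene (538, 197 and 382 bases) that unstranded reads cannot separate. All 9 chains were named, with the 4 called genes of largest change in each partner list (1 of them is not reported here), the 2 genes nearest in profile to each chain, and Pecam1, Cdh5, Epcam, Ptprc and Enpep. The other partner genes named, Foxj1, Sftpc, Sftpa1 and the values of Dbp were chosen after their values were seen. Members and lists were chosen with earlier results of these data known. P-values measure the spread between libraries within each fraction of these 4 mice. The main edgeR fit and the exact permutation test did not pair the fractions by mouse.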

Additional observations from a re-analysis of the deposited data

Results flagged for a closer look

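In 8 of 38 groups of 4 libraries, 1 library lay apart from the other 3 by Dixon's criterion, which flags about 1 in 20 groups by chance. In mouse 10 these were Lamb3 in CD249+ cells (29.6 CPM) and in CD249- cells (7.62 CPM), Lama3 in CD249- cells (4.59 CPM), and the CD249- log2 ratios of Lama3 over Lama5 (-4.87) and Lamb2 over Lamb3 (6.15). In CD249+ cells of mouse 2 they were Lamc3 (78.6 CPM) and the log2 ratio of Lamc1 over Lamc3 (2.52). In CD249+ cells of mouse 7 it was the log2 ratio of Lama4 over Lama5 (2.43). Several of these share a chain and a library, so they are not independent of each other.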

How the results depend on the processing

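Lama2, Lama4, Lama5, Lamb1, Lamc1 and Lamc3 kept their direction and call under every alternative, with leave-out ranges of 1.43 to 1.94, 2.22 to 2.48, -1.37 to -1.01, 2.64 to 3.04, 1.37 to 1.63 and 2.42 to 2.96 on the log2 scale. Lamb2 gave 0.35 with library totals only and 0.31 to 0.57 in leave-outs. Lamb3 passed only with the replicate block (1.52), which changed no other chain's call, and ranged from 0.19 to 3.24 in leave-outs, Lama3 from -0.60 to 1.00. Chains called numbered 6 to 8. Over all genes, 5298 were called with the block and 2978 to 4458 in leave-outs, with 1201 to 1979 lower. Without division by length, Lama4 was 63.3% of alpha in CD249+ cells, Lamb1 51.8% of beta in CD249+ and 17.8% in CD249- cells, and Lamc1 82.6% of gamma in CD249- cells. With the longest transcript, Lama4 was 74.0% in CD249+ and 43.7% in CD249- cells and Lamb1 51.1% in CD249+ and 17.4% in CD249- cells. The cause was not tested beyond the change of length itself. Counts of Lama3 (16 to 153 a library) and Lamb3 (22 to 864) limit those chains, and 4 mice limit exact tests, which reach 0.125 at best when the fractions are paired by mouse.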

Other observations

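Dbp, a clock-controlled transcription factor gene and the nearest in profile to Lamb3, stood at 4.31, 10.1, 4.42 and 81.3 CPM in CD249+ libraries (mice 2, 7, 8 and 10) against 2.52, 5.39, 3.38 and 23.8 CPM in CD249- libraries. Mouse 10 was highest in both fractions, as it was for Lamb3. Dbp was picked for its likeness to Lamb3 over these same libraries, so this match follows from the choice.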
